A study of Oryctolagus cuniculus with 6 samples.

Results

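The node and paranode adhesion complex genes were examined in injured rabbit facial nerve. The 10 members, chosen by gene symbol, were NFASC, NRCAM, GLDN, ANK3, SPTBN4, CNTN1, CNTNAP1, EPB41L3, CNTN2 and CNTNAP2, out of 17396 genes in the files, and all 10 passed the filter on low counts. The RNA came from male Japanese white rabbits aged 3 to 4 months and labelled wild type. In both groups the main trunk of the left facial nerve had been cut, and the nerve was harvested on day 14. The FNI group (ctrl in the labels, 3 libraries) had the transection alone. The FNI+I-125 group (Itrans in the labels, 3 libraries) had the transection and an iodine-125 seed of 0.8 mCi, which gives off low-energy radiation, placed 0.3 to 0.5 cm from the nerve. The libraries were made from whole nerve tissue, so each holds the RNA of Schwann cells, fibroblasts, vessels, immune cells and any tissue taken along. Sham-operated nerves were not analysed here, so the values compare the seed with transection alone and say nothing of an uninjured nerve.

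Along a myelinated axon, the node of Ranvier is the gap between neighbouring myelin segments where sodium channels gather. Schwann cells hold it in place from outside through gliomedin and NRCAM, which bind neurofascin on the axon, and ankyrin G with beta-IV spectrin anchors neurofascin and the channels from inside. At the paranode, beside the node, the glial form of neurofascin binds a pair of axonal proteins, contactin 1 and CNTNAP1 (Caspr), which the band 4.1 protein EPB41L3 ties to the axonal skeleton. At the juxtaparanode, under the edge of compact myelin, contactin 2 and CNTNAP2 (Caspr2) hold potassium channels. NFASC gives rise to both the nodal and the glial form, and counts per gene cannot tell the forms apart. In nerve tissue the neuron's cell body is absent, so transcripts come mainly from resident cells.

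Total counts ran from 16031151 to 16798012 per library, and values are given as CPM (a gene's count divided by its library's total count, with totals scaled by edgeR's TMM factors of 0.923 to 1.06). At these depths 3 counts, the upper limit that a count of 0 allows for counting error alone, equal 0.176 to 0.196 CPM. Where 3 values follow each other, they belong to replicates 1, 2 and 3 of the group. Several libraries stood apart by their marker genes. The summed level of 10 compact myelin genes was 7247, 3471 and 41765 CPM with FNI against 623, 3570 and 752 CPM with FNI+I-125. Skeletal muscle markers, 8 of 12 in the files, summed to 70.1 to 156 CPM in the FNI libraries and to 4861 and 4317 CPM in FNI+I-125 replicates 1 and 2, but to 45.6 CPM in FNI+I-125 replicate 3. Salivary gland markers, 5 of 12 in the files, summed to 57261 CPM in FNI replicate 2 and to at most 3127 CPM elsewhere. Epithelial markers, 6 of 7 in the files, summed to 1045 CPM in FNI replicate 1 and 1427 CPM in FNI+I-125 replicate 3, and to 22.2 to 287 CPM elsewhere. Perineurial and adipocyte markers had median log2 fold changes of -1.41 and -1.55, and both sums were highest in FNI replicate 3 and lowest in FNI+I-125 replicate 1, as NFASC was. The part of these cells in the members' values was not tested. Schwann cell markers were present in every library. Their 8 genes summed to 1284 to 2687 CPM in the FNI group and to 465 to 1259 CPM in the FNI+I-125 group, and none of them was at 0 in any library. Of 10 neuron and axon markers, 3 passed the filter on low counts, namely UCHL1, TUBB3 and SYT1, and RBFOX3 stayed at or below 0.567 CPM. UCHL1 stood at 7.79, 6.68 and 51.5 CPM with FNI and at 2.09, 4.26 and 9.98 CPM with FNI+I-125. Its highest and lowest libraries were those of NFASC. TUBB3 ranged from 7.39 to 24.8 CPM, and SYT1 stayed at or below 0.946 CPM. The part of axonal RNA in the members' values was not tested. Neither the labels nor the methods name a batch.

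**Figure D1:**
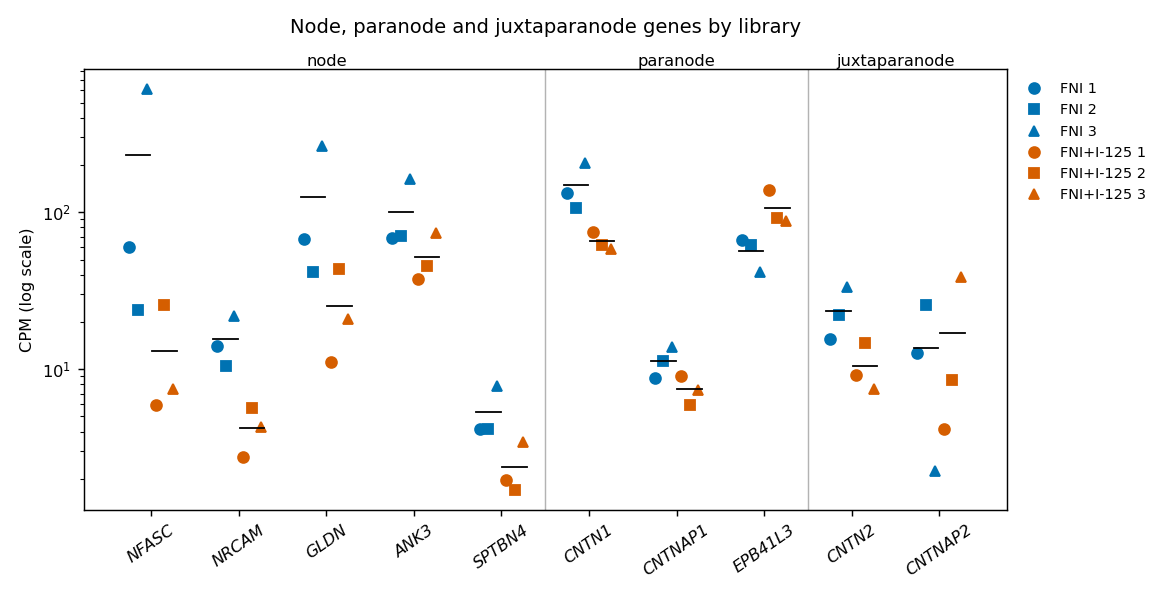
CPM of the 10 members in each library on a log axis, with FNI libraries in blue, FNI+I-125 libraries in orange, marker shape for the replicate and black lines for group means. NFASC spans 5.88 to 608 CPM, whereas CNTNAP1 spans 5.90 to 13.8 CPM. EPB41L3 is the member whose FNI+I-125 libraries all lie above the FNI libraries.

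As a group, the members stood lower in the nerves with a seed, apart from EPB41L3, which was higher, and CNTNAP2, which had no common direction. Of the 10, 8 had a negative log2 fold change, which 48.9% of the 14003 genes tested also had, and the median was -1.18 against 0.01 over all genes tested. The 10 compact myelin genes all had a negative log2 fold change, with a median of -3.46, so the lower level was not particular to the members. By edgeR's quasi-likelihood test, 0 members passed an adjusted p under 0.05 (Benjamini-Hochberg) with a log2 fold change of at least 1.5 in size, and 0% of all genes did. At an unadjusted p under 0.05, 6 members were lower and 1 was higher, where 7.73% of all genes tested were lower and 9.23% were higher, 17% in all. The count of 1 higher member in 10 is near that share of higher genes. With a log2 fold change of -1.5 or less as well, 3 members were lower, NFASC, NRCAM and GLDN, and 2.19% of all genes. The groups did not overlap for 5 members, against 27.2% of all genes tested. These were NRCAM, SPTBN4, CNTN1 and CNTN2 on the lower side (12.3% of all genes) and EPB41L3 on the higher side (14.8% of all genes). DESeq2, with its own size factors and Benjamini-Hochberg adjustment, called the same 3 members lower and none higher, and it called 3.34% of the genes it tested, with 1.26% of its genes called lower. At an unadjusted p under 0.05, 8 members were lower in DESeq2, where 9.02% of its genes were. In bulk tissue, fewer cells of a type and less RNA per cell cannot be told apart.

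The number of members at an unadjusted p depended on the libraries. Without FNI replicate 3 it was 2 lower members, NRCAM and CNTN1, and without FNI+I-125 replicate 1 it was 3. EPB41L3 remained at an unadjusted p under 0.05 when any library was left out, with p from 0.0152 to 0.0333. So did NRCAM, with p from 0.00325 to 0.0126, and CNTN1, with p from 0.00235 to 0.0180.

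Neurofascin was the most variable member. NFASC had 1020, 380 and 10281 counts with FNI and 90, 423 and 128 counts with FNI+I-125. On the CPM scale these are 59.7, 23.9 and 608 against 5.88, 25.7 and 7.51. FNI replicate 3 was 14.5 times the mean of the other FNI libraries, and FNI+I-125 replicate 2 lay just above FNI replicate 2, so the groups overlapped. This gave a log2 fold change of -4.14 with a standard error of 1.41 (edgeR, adjusted p = 0.280 after Benjamini-Hochberg adjustment). Without FNI replicate 3 it was -1.69. DESeq2 gave -4.15 and an adjusted p of 0.00655 (Benjamini-Hochberg). That call was lost when FNI replicate 3, FNI+I-125 replicate 1 or FNI+I-125 replicate 3 was left out. The two-sided p of an exact permutation test on log2(CPM + 1) was 0.2, and the smallest p that 3 libraries against 3 allow is 0.1.

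Gliomedin, the Schwann cell ligand that clusters neurofascin at the node, followed NFASC. GLDN stood at 67.8, 41.6 and 265 CPM with FNI and at 11.1, 43.6 and 20.8 CPM with FNI+I-125. As for NFASC, FNI replicate 3 was highest, FNI+I-125 replicate 1 was lowest, and FNI+I-125 replicate 2 lay above FNI replicate 2. For GLDN the log2 fold change was -2.31 with a standard error of 0.85 (edgeR, adjusted p = 0.282 with Benjamini-Hochberg adjustment), and it was -1.13 without FNI replicate 3. DESeq2 gave an adjusted p of 0.0428 (Benjamini-Hochberg), and of the 6 fits that leave out a library, those without FNI replicate 2 and without FNI+I-125 replicate 2 kept that call.

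NRCAM, the other cell adhesion molecule of the node, differed between the groups in every pair of libraries. Its levels were 14.1, 10.5 and 21.9 CPM with FNI and 2.75, 5.66 and 4.29 CPM with FNI+I-125. The groups did not overlap (exact permutation test, p = 0.1). For NRCAM the log2 fold change was -1.87 with a standard error of 0.39 (edgeR, adjusted p = 0.280 with Benjamini-Hochberg adjustment). It stayed between -2.17 and -1.55 with any library left out. DESeq2 gave an adjusted p of 0.00205 (Benjamini-Hochberg) and still called NRCAM when any 1 of the 6 libraries was left out, with adjusted p from 9.6e-04 to 0.0205.

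The submembranous scaffold of the node had log2 fold changes nearer to 0. Ankyrin G, encoded by ANK3, stood at 68.9, 70.1 and 163 CPM in the FNI libraries and at 37.4, 45.4 and 73.6 CPM in the FNI+I-125 libraries. FNI+I-125 replicate 3 lay above FNI replicates 1 and 2, so the groups overlapped. ANK3 had a log2 fold change of -0.95 with a standard error of 0.43, or -0.44 without FNI replicate 3. SPTBN4, which encodes beta-IV spectrin, was the member with the lowest counts, 66 to 132 in the FNI libraries and 28 to 59 in the FNI+I-125 libraries. These were 4.16, 4.16 and 7.80 CPM against 1.96, 1.70 and 3.46 CPM, and the groups did not overlap (exact permutation test, p = 0.1). SPTBN4 had a log2 fold change of -1.17 with a standard error of 0.43 (edgeR, adjusted p = 0.281 with Benjamini-Hochberg adjustment).

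**Figure D2:**
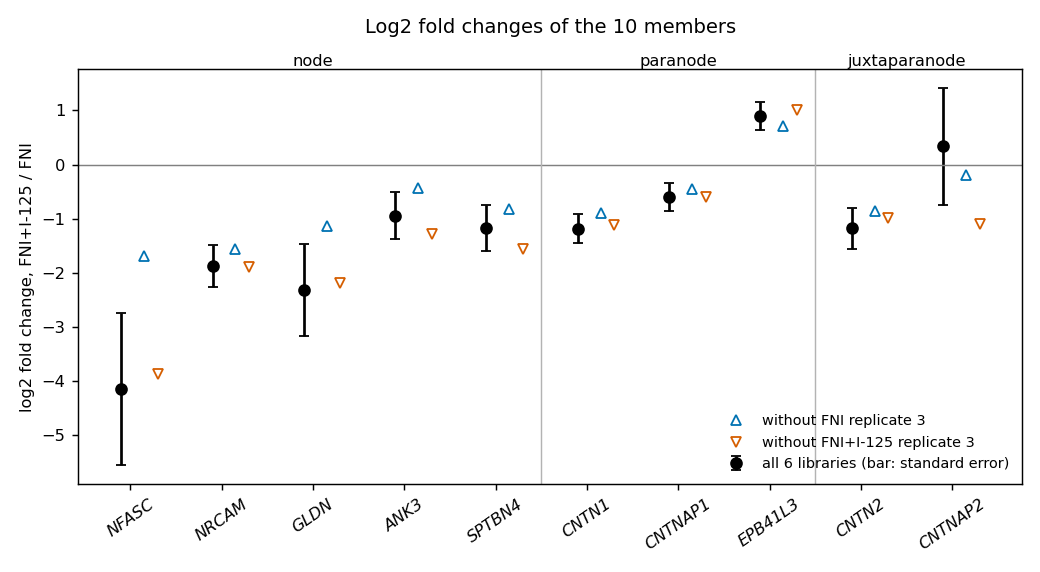
Log2 fold change of each member, FNI+I-125 against FNI, with the standard error derived from the edgeR test (black), and the value without FNI replicate 3 (blue) or without FNI+I-125 replicate 3 (orange). NFASC moves from -4.14 to -1.69 without FNI replicate 3, NRCAM from -1.87 to -1.55, and CNTNAP2 from 0.33 to -1.10 without FNI+I-125 replicate 3.

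At the paranode, contactin 1 and its partner CNTNAP1 both had a negative log2 fold change. CNTN1 stood at 132, 107 and 206 CPM with FNI and at 74.8, 62.3 and 58.5 CPM with FNI+I-125, without overlap (exact permutation test, p = 0.1). Contactin 1 had a log2 fold change of -1.19 with a standard error of 0.27 (edgeR, adjusted p = 0.280 with Benjamini-Hochberg adjustment), and it stayed between -1.38 and -0.89 with any library left out. In DESeq2 CNTN1 had an adjusted p of 0.00592 (Benjamini-Hochberg), but its log2 fold change of -1.20 was under the threshold of 1.5 in size. Without FNI+I-125 replicate 2 that adjusted p was 0.0554 (DESeq2, Benjamini-Hochberg), and with any other library left out it was at most 0.0473. CNTNAP1 stood at 8.78, 11.3 and 13.8 CPM against 9.09, 5.90 and 7.40 CPM. FNI+I-125 replicate 1 lay above FNI replicate 1, so these groups overlapped. CNTNAP1 had a log2 fold change of -0.60 with a standard error of 0.26 (edgeR, adjusted p = 0.310 with Benjamini-Hochberg adjustment). Whether CNTN1 and CNTNAP1 differ from each other in their fold change was not tested.

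EPB41L3, the band 4.1 protein of the paranode, stood apart from its partners. It had 66.2, 61.8 and 41.7 CPM with FNI and 138, 91.7 and 87.9 CPM with FNI+I-125. All FNI+I-125 libraries lay above all FNI libraries (exact permutation test, p = 0.1). EPB41L3 averaged 56.6 ± 13.1 CPM (SD, n = 3) with FNI and 106 ± 27.9 CPM (SD, n = 3) with the seed. This gave a log2 fold change of 0.90 with a standard error of 0.26 (edgeR, adjusted p = 0.280 with Benjamini-Hochberg adjustment), and with any library left out it stayed between 0.67 and 1.03. DESeq2 gave an adjusted p of 0.0480 (Benjamini-Hochberg) at a log2 fold change of 0.89, which is under the threshold of 1.5. With any library left out, that adjusted p was above 0.05, from 0.0525 to 0.221 (DESeq2, Benjamini-Hochberg). Macrophage markers, 6 of 8 in the files, were also higher. They summed to 180 to 671 CPM in the FNI libraries and to 881 to 1232 CPM in the FNI+I-125 libraries, with none at 0. Of the 6, 4 did not overlap between the groups, where 14.8% of all genes tested did not overlap on the higher side. CD68, a lysosomal protein of macrophages, stood at 91.2, 133 and 16.5 CPM with FNI and at 179, 497 and 309 CPM with FNI+I-125. CSF1R, the receptor for the macrophage growth factor, stood at 219, 276 and 77.2 CPM against 336, 345 and 297 CPM. The part of macrophage RNA in the EPB41L3 difference was not tested.

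At the juxtaparanode, contactin 2 and CNTNAP2 had log2 fold changes of opposite sign, and the difference between them was not tested. Contactin 2 stood at 15.5, 22.0 and 33.2 CPM with FNI and at 9.22, 14.6 and 7.46 CPM with FNI+I-125, without overlap (exact permutation test, p = 0.1). CNTN2 had a log2 fold change of -1.18 with a standard error of 0.38 (edgeR, adjusted p = 0.280 with Benjamini-Hochberg adjustment), or -0.86 without FNI replicate 3. CNTN2 is the gene listed next to NFASC in RefSeq's table for mOryCun1.1, a rabbit assembly.

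CNTNAP2, which the study links to NFASC by protein binding and as a positive regulator of its level, showed no common direction. It had 218, 409 and 38 counts with FNI and 64, 140 and 658 counts with FNI+I-125. On the CPM scale these are 12.8, 25.8 and 2.25 against 4.18, 8.52 and 38.6. The lowest CNTNAP2 level was in FNI replicate 3, where NFASC was highest, and the highest CNTNAP2 level was in FNI+I-125 replicate 3, where NFASC stood at 7.51 CPM. The group means were 13.6 ± 11.8 CPM (SD, n = 3) and 17.1 ± 18.8 CPM (SD, n = 3). The log2 fold change of 0.33 had a standard error of 1.08 (edgeR, adjusted p = 0.884 with Benjamini-Hochberg adjustment). It was -1.10 without FNI+I-125 replicate 3 and -0.20 without FNI replicate 3, so leaving out either library turned its sign, and it was 1.19 without FNI replicate 2. CTCF, which the study links to CNTNAP2 transcription, ranged from 73.0 to 83.7 CPM over the 6 libraries. Its log2 fold change was -0.07 with a standard error of 0.10. The study reported lower CTCF, CNTNAP2 and NFASC protein with the seed in another set of rabbits. It also reported lower RNA and protein of these genes in a human Schwann cell line exposed to I-125 in culture. The values here are RNA of transected rabbit nerve tissue, so they are not the same measure.

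Whether the members moved with NFASC was examined across the 6 libraries on the log2(CPM + 1) scale, with exact permutation p over the 720 pairings and Benjamini-Hochberg adjustment over the 9 relations. The libraries include both groups, so the group difference is part of each value. GLDN followed NFASC in the same order in every library, with Pearson's r = 0.986 (exact permutation p = 0.00139, adjusted p = 0.0125) and Spearman's rho = 1 (exact permutation p = 0.00278, adjusted p = 0.0250). Without FNI replicate 3 and FNI+I-125 replicate 1, the libraries farthest from the median of NFASC, r was 0.999. NRCAM had r = 0.920 (exact permutation p = 0.00278, adjusted p = 0.0125), rho = 0.943 (exact permutation p = 0.0167, adjusted p = 0.0750) and r = 0.863 without those libraries.

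CNTN1 and CNTN2 had r of 0.892 and 0.885, each with an exact permutation p of 0.0181 and an adjusted p of 0.0406. Their rho of 0.714 and 0.771 did not pass (exact permutation, adjusted p = 0.245 for both), and without the same libraries r was 0.796 and 0.697. For ANK3, r was 0.837 (exact permutation p = 0.0389, adjusted p = 0.0583) and rho 0.486 (exact permutation p = 0.356, adjusted p = 0.457), and r turned to -0.202 without those libraries, so its relation rests on them. SPTBN4 had r = 0.793 (exact permutation p = 0.0514, adjusted p = 0.0661) and rho = 0.657 (exact permutation p = 0.175, adjusted p = 0.263), with r = 0.118 without them. For CNTNAP1, r was 0.623 (exact permutation p = 0.192, adjusted p = 0.216) and rho 0.257 (exact permutation p = 0.658, adjusted p = 0.658), with r = 0.225 without them. EPB41L3 had a negative r of -0.885 with NFASC, which did not pass after adjustment (exact permutation p = 0.0292, adjusted p = 0.0525). Its rho was -0.714 (exact permutation p = 0.136, adjusted p = 0.245), and r was -0.555 without those libraries. CNTNAP2 had r = -0.541 (exact permutation p = 0.275, adjusted p = 0.275), rho = -0.371 (exact permutation p = 0.497, adjusted p = 0.559) and r = -0.723 without them. Thus 4 of the 9 members passed by r and GLDN alone passed by rho. Ranked by r with NFASC among 13981 other genes, GLDN was in position 62, NRCAM in 762, CNTN1 in 1022 and CNTN2 in 1088. Many genes outside the members therefore had an r as high as those of NRCAM, CNTN1 and CNTN2. EPB41L3 was in position 12984, so many genes also had an r more negative than its own.

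**Figure D3:**
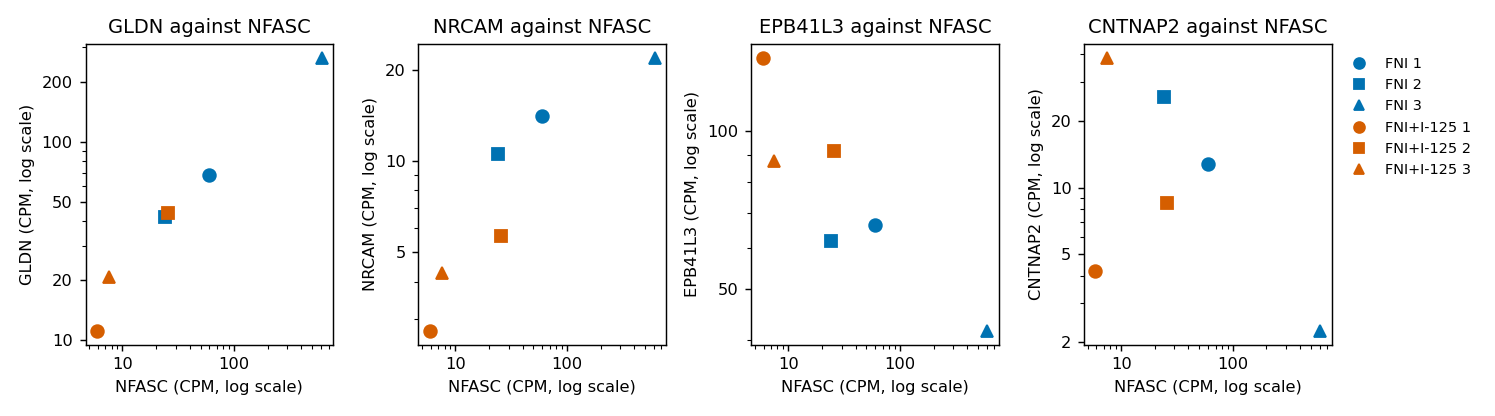
CPM of GLDN, NRCAM, EPB41L3 and CNTNAP2 against CPM of NFASC, both on log axes, with 1 point per library, FNI in blue and FNI+I-125 in orange. GLDN rises with NFASC over all 6 libraries (r = 0.986). At near equal NFASC, 23.9 and 25.7 CPM in replicate 2 of each group, NRCAM is 10.5 and 5.66 CPM.

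The ratio of each member to NFASC within a library does not depend on how libraries are scaled, apart from the pseudocount. As a difference of log2(CPM + 1), EPB41L3 minus NFASC was 0.15, 1.33 and -3.83 with FNI and 4.34, 1.79 and 3.38 with FNI+I-125. It was the member whose ratio did not overlap between the groups, with a difference of 3.96 (exact permutation test, p = 0.1, adjusted p = 0.225 over the 9 members). GLDN minus NFASC had the difference nearest to 0, with 0.18, 0.77 and -1.19 against 0.82, 0.74 and 1.36 and a difference of 1.05 (exact permutation test, p = 0.2, adjusted p = 0.225). For the other 7 members the differences ran from 1.43 for NRCAM to 3.30 for CNTNAP2, all positive, and all overlapped between the groups. NFASC itself had the most negative difference of the members on this scale, at -3.07, and the study picked it as a lowered gene in these data. The positive sign for all 9 members follows from that and is not a separate result. These differences leaned on FNI replicate 3. Without it they were 2.43 for EPB41L3, 1.13 for CNTNAP2, 0.49 for GLDN and 0.37 for NRCAM. Without FNI replicate 2 the ratios of 9 members did not overlap, and without FNI+I-125 replicate 2 those of 8. With this design no ratio can reach a p below 0.1.

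Replicate 2 of each group had almost the same NFASC level, which allows a comparison at matched NFASC, chosen after the values were seen and without a test. In the FNI and the FNI+I-125 library of this number, GLDN was 41.6 and 43.6 CPM. CNTN1 was 107 and 62.3 CPM, CNTN2 was 22.0 and 14.6 CPM, and EPB41L3 was 61.8 and 91.7 CPM. CNTNAP2 was 25.8 and 8.52 CPM, NRCAM was 10.5 and 5.66 CPM, and ANK3 was 70.1 and 45.4 CPM. SPTBN4 was 4.16 and 1.70 CPM, and CNTNAP1 was 11.3 and 5.90 CPM. The libraries differed in other tissue, with salivary gland marker sums of 57261 and 19.6 CPM and skeletal muscle marker sums of 70.1 and 4317 CPM. The summed compact myelin genes were 3471 and 3570 CPM in these libraries.

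Among 13981 other genes, those whose log2(CPM + 1) profile over the 6 libraries was most like NFASC were PMP22, PLEKHA4, TBC1D32, KIAA1549L and CALY, with Pearson's r from 0.998 to 0.999, given as a description. PMP22, a protein of compact myelin, stood at 852, 412 and 5620 CPM with FNI and at 136, 425 and 144 CPM with FNI+I-125. GLDN was in position 62 of this ranking, NRCAM in position 762, CNTN1 in position 1022, CNTN2 in position 1088 and CNTNAP2 in position 9819. The same ranking for CNTNAP2, made after its values were seen, was led by MOCS3, MGP, OLIG1, ARHGEF4 and LRP2, with r from 0.986 to 0.996. OLIG1, a transcription factor listed among the markers of repair or immature Schwann cells, had 4.92, 15.6 and 0 CPM in the FNI libraries and 1.11, 2.74 and 16.8 CPM in the FNI+I-125 libraries. Of the 10 genes in that list, JUN, OLIG1, GDNF and SOX2 were lowest in FNI replicate 3 and highest in FNI+I-125 replicate 3, as CNTNAP2 was, and the other 6 were not. SHH had the opposite order, with 8.04 CPM in FNI replicate 3 and 0.352 CPM in FNI+I-125 replicate 3.

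**Figure D4:**
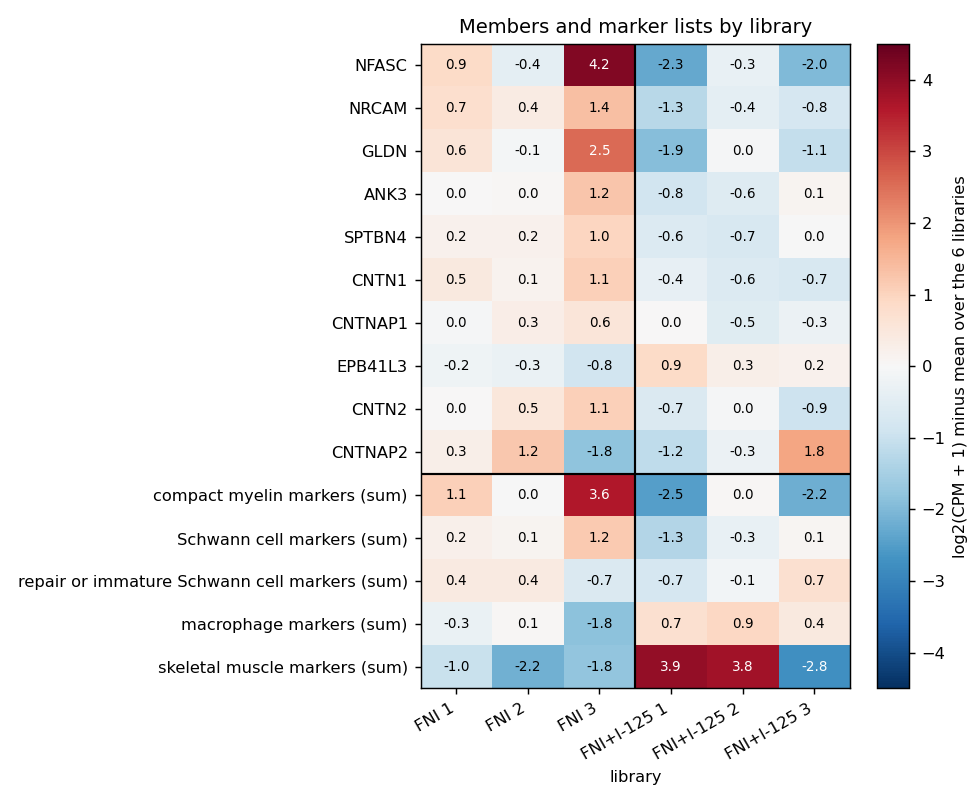
Each member (upper block) and the summed CPM of 5 marker lists (lower block) in each library, as log2(CPM + 1) minus the mean over the 6 libraries, red above and blue below that mean. NFASC, GLDN and the compact myelin sum share FNI replicate 3 as the highest and FNI+I-125 replicate 1 as the lowest library, and CNTNAP2 is lowest in FNI replicate 3 and highest in FNI+I-125 replicate 3.

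Schwann cell markers stood lower in part with the seed. SOX10, the transcription factor that defines the lineage, stood at 275, 276 and 229 CPM with FNI and at 54.4, 133 and 222 CPM with FNI+I-125. All 8 Schwann cell markers had a negative log2 fold change, with a median of -0.71, and S100B was the 1 at an unadjusted p under 0.05, where 7.73% of all genes tested were lower. SOX10 and S100B did not overlap between the groups, and the other 6 did, where 12.3% of all genes tested did not overlap on the lower side. The members were also set against the summed Schwann cell markers of the same library, a scale chosen after values were seen. On it, NRCAM was lower in every FNI+I-125 library than in any FNI library, with a difference of -0.61 on the log2 scale (exact permutation test, p = 0.1). NFASC differed by -2.03 and GLDN by -0.98, with overlap (exact permutation test, p = 0.2 for both). Without FNI replicate 3 these differences were -1.05 and -0.56, whereas that of NRCAM was -0.68, and without FNI+I-125 replicate 3 that of NRCAM was -0.32. The differences were near 0 for CNTN1 at -0.09 and CNTN2 at -0.06, and were 0.16 for ANK3, 0.13 for SPTBN4 and 0.50 for CNTNAP1. These 5 differences changed sign for 1 or more left-out libraries, and without FNI+I-125 replicate 1 CNTN1 stood at -0.60. EPB41L3 was higher by 1.92 without overlap (exact permutation test, p = 0.1). Set against SOX10 alone, NRCAM differed by -0.50 with overlap (exact permutation test, p = 0.5), NFASC by -1.93 (exact permutation test, p = 0.4) and EPB41L3 by 2.02 without overlap (exact permutation test, p = 0.1).

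**Figure D5:**
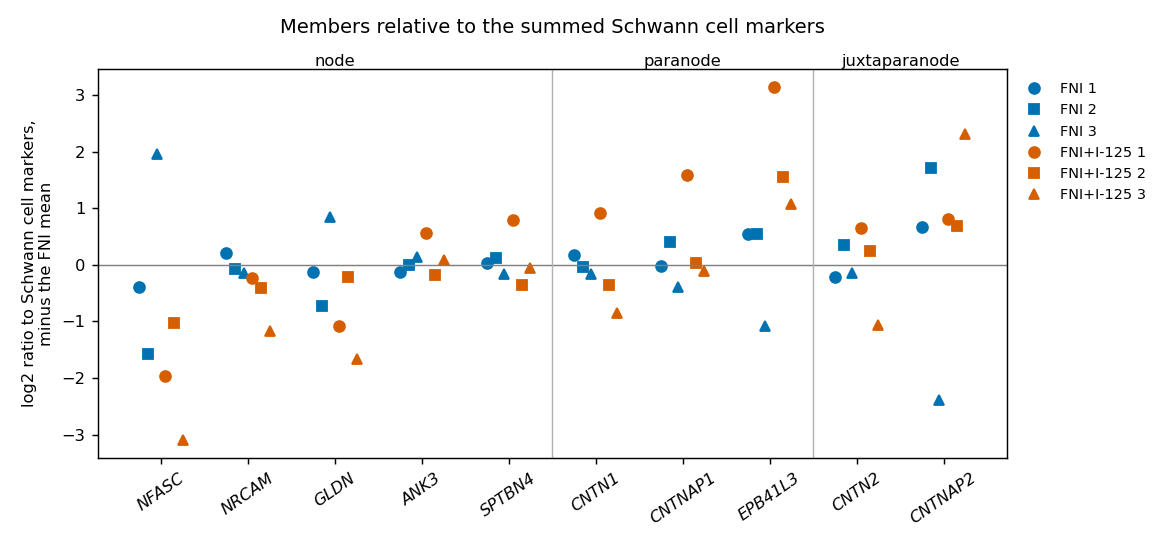
Log2 ratio of each member to the summed CPM of 8 Schwann cell markers in the same library, shown as the difference from the FNI mean, with FNI in blue and FNI+I-125 in orange. NRCAM and EPB41L3 are the members without overlap between the groups, and the FNI+I-125 mean of CNTN1 and CNTN2 is within 0.1 of the FNI mean.

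Other genes of the node region mostly stood lower as well. Of 37 genes listed, 32 were tested, 24 had a negative log2 fold change and the median was -0.54, against 0.01 over all genes tested. At an unadjusted p under 0.05, 9 were lower and 2 were higher, where 7.73% of all genes tested were lower, 9.23% were higher and 48.9% had a negative log2 fold change. Of the nodal channels and alpha spectrin, SPTAN1, the alpha-II spectrin that pairs with SPTBN4, had 974, 893 and 1372 CPM in the FNI libraries and 578, 761 and 794 CPM in the FNI+I-125 libraries (log2 fold change -0.60, standard error 0.24). SCN4B, a sodium channel beta subunit, had 21.6, 20.2 and 77.4 CPM against 6.73, 14.5 and 9.69 CPM (log2 fold change -1.94, standard error 0.63). SCN2B, another beta subunit, had a log2 fold change of -1.28 (standard error 0.75) with overlap. SCN8A, the main nodal sodium channel of mature axons, did not exceed 0.0591 CPM, which is below the level of 3 counts in every library.

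At the paranode, all 5 further genes had a negative log2 fold change, and 4 of them did not overlap between the groups, where 48.9% of all genes tested were negative and 12.3% did not overlap on the lower side. SPTBN1, the beta-II spectrin of the paranodal scaffold, had a log2 fold change of -0.73 (standard error 0.26), EPB41L2 of -0.76 (standard error 0.29) and ANK2 of -0.47 (standard error 0.16). CLDN19, a claudin of Schwann cell junctions, had 72.8, 35.4 and 380 CPM against 3.86, 30.9 and 1.82 CPM, a profile with the same high library as NFASC. Its log2 fold change of -3.74 (standard error 1.42) was -2.15 without FNI replicate 3. Of the juxtaparanodal genes, ADAM22, which binds the potassium channel complex, was the 1 of 7 tested at an unadjusted p under 0.05, with a log2 fold change of -0.72 (standard error 0.28). DLG4, a scaffold protein, had -0.11 (standard error 0.15), KCNAB2, a potassium channel subunit, had 0.77 (standard error 0.34), and KCNA1, the channel itself, had -1.20 (standard error 1.01).

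Genes of the Schwann cell microvilli and the matrix over the node pointed both ways. VCAN, which encodes the matrix proteoglycan versican, was higher, with 378, 365 and 68.9 CPM with FNI and 1868, 717 and 932 CPM with FNI+I-125. Its log2 fold change was 2.12 (standard error 0.72), with a DESeq2 adjusted p of 0.0305 (Benjamini-Hochberg). SDC4, a syndecan, was higher by 0.51 (standard error 0.12) and SDC3, another syndecan, was lower at -0.85 (standard error 0.31), both on the log2 scale and without overlap. MSN, which encodes the microvillar protein moesin, stood at 0.51 (standard error 0.21) without overlap, and DAG1 at -0.38 (standard error 0.49) with overlap. These genes are also expressed outside Schwann cells, and the part of other cells was not tested.

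Of the internodal adhesion genes, CADM4, the Schwann cell partner of axonal CADM proteins, had 89.7, 55.8 and 474 CPM against 12.4, 37.9 and 24.1 CPM. CADM4 gave a log2 fold change of -3.06 (standard error 0.94), and of -1.57 when FNI replicate 3 was left out, with a DESeq2 adjusted p of 0.00726 (Benjamini-Hochberg). CADM3 had a log2 fold change of -1.04 (standard error 0.47) and L1CAM of -0.40 (standard error 0.57), both with overlap.

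Relatives of the members from the same gene families were read in the same way. Of 21 listed, 18 were tested, 16 had a negative log2 fold change, and 9 were lower and 1 higher at an unadjusted p under 0.05, against the same 7.73% and 9.23% of all genes. The lists share 4 genes, L1CAM, ANK2, SPTBN1 and EPB41L2, and the last 3 of these are among the lower genes of both. Within the L1 family, which holds NFASC and NRCAM, CHL1 stood at 81.8, 82.8 and 76.6 CPM in the FNI libraries and at 23.5, 49.4 and 43.0 CPM with FNI+I-125. Its log2 fold change of -1.06 (standard error 0.28) was not carried by FNI replicate 3, without which it was -1.11. Among contactins, CNTN3 had a log2 fold change of -1.29 (standard error 0.37) and did not overlap between the groups. CNTN6 had 1.05, 0.756 and 1.36 CPM against 0.196, 0.243 and 0.411 CPM (log2 fold change -1.86, standard error 0.52), and CNTN4 had -1.95 (standard error 0.96) with overlap. Of the contactin-associated relatives, CNTNAP4 was tested, with -1.25 (standard error 1.51), and CNTNAP5 had at most 1 count in a library.

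Among the spectrin and ankyrin relatives, SPTBN5 had 34.5, 17.9 and 483 CPM against 9.48, 14.9 and 5.87 CPM. This gave -4.15 on the log2 scale (standard error 1.38), and -1.39 when FNI replicate 3 was left out. ANK1, which muscle also expresses, had 1.46, 1.32 and 3.66 CPM in the FNI libraries and 22.9, 18.5 and 2.41 CPM in the FNI+I-125 libraries. The libraries with high ANK1 were those with high skeletal muscle markers, and the part of muscle RNA was not tested. Of the band 4.1 relatives of EPB41L3, all 6 had a negative log2 fold change. EPB41L5 stood at -1.30 (standard error 0.29), EPB41L1 at -0.47 (standard error 0.17) and EPB41 at -0.27 (standard error 0.19), where EPB41L3 itself had 0.90.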

How the data were processed

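RNA-seq of 6 rabbit facial nerve libraries, 3 per group, was analysed. For each library the authors deposited raw counts, unscaled whole numbers for each gene, made from oligo dT selected, paired-end Illumina reads. HISAT2 and OryCun2.0 are named in the submitters' processing notes, and the counting program and its strand setting are not given in the sources used here. LOC identifiers (542 of 2992) took a symbol from the RefSeq table of mOryCun1.1. That build differs, so coordinates were left out. A date stands in place of the name for 25 genes, which stayed unnamed.

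Counts were tested in R 4.3.3 with edgeR 4.0.16 (quasi-likelihood, TMM, filterByExpr with a minimum count of 10, 14003 genes), two-sided, and p was adjusted by Benjamini-Hochberg across the genes tested. Alternatives used limma 3.58.1 and DESeq2 1.42.0, other scalings and filters, a replicate block, a pseudocount of 0.1 for ratios, and leaving out each library. Each standard error was derived as the size of the edgeR log2 fold change divided by the square root of the F statistic. Gene statistics were tested on simulated data. Exact permutation tests were run in Python 3.11.15. Levels were not compared between genes, as transcript lengths were not used here.

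The members and gene lists were chosen with earlier results of these data known. Named genes were all members, listed genes at an unadjusted p under 0.05, up to 3 genes of highest mean CPM per list shown, the 5 genes most like NFASC, and CTCF. Others are named for their values, namely SCN8A, RBFOX3, CNTNAP5, ERBB3, JUN, SOX2, GDNF, SHH, OLIG1 and the genes ranked by likeness to CNTNAP2. Each library is labelled a separate sample, and p-values measure the spread between these.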

Additional observations from a re-analysis of the deposited data

How the results depend on the processing

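For 9 of the 10 members the direction stayed the same under DESeq2, limma-voom, other scalings and filters, a replicate block and with each library left out. The log2 fold change of CNTNAP2 turned to -0.17 with the replicate block, to -0.20 without FNI replicate 3 and to -1.10 without FNI+I-125 replicate 3, with a range of -1.10 to 1.19 over left-out libraries, and DESeq2 gave -0.19 and -1.10 without these libraries. Relative to the Schwann cell marker sum, chosen after seeing the data, ANK3 turned to 0.16, SPTBN4 to 0.13 and CNTNAP1 to 0.50, and NFASC stood at -2.03. DESeq2 called 289 higher and 175 lower genes in place of 0 and 0, with 3 lower members, and gave NFASC a log2 fold change of -4.15 past the threshold. With a library left out, edgeR and DESeq2 together gave 0 to 400 higher genes, 0 to 278 lower genes, 0 to 4 lower members, and an NFASC log2 fold change of -5.13 to -1.69. In edgeR alone, only the fit without FNI+I-125 replicate 3 called genes, 38 higher and 2 lower, none of them a member. Lower members at an unadjusted p numbered 2 to 8 over the left-out libraries of both tools. The ratio to NFASC did not overlap between the groups for 1 to 9 of 9 members with a library left out, 9 without FNI replicate 2 and 8 without FNI+I-125 replicate 2. The cause of these changes was not tested. Same-numbered libraries had correlations of their deviations of 0.05, -0.23 and -0.19, and differently numbered libraries had -0.31 to 0.35. These values showed no sign that the numbers pair the samples, though 3 libraries per group cannot exclude it. The replicate block left 0 members called and 5 lower members at an unadjusted p, against 6 without the block. SPTBN4, with 28 to 132 counts, is the member most limited by depth.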
